A study of Mus musculus with 4 samples.

Results

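The genes described here are the Fos, Jun and Egr families of transcription factors: Fos, Fosb, Fosl1, Fosl2, Jun, Junb, Jund, Egr1, Egr2 and Egr3. Their probe sets were taken by gene symbol and not by signal, but the families were chosen with earlier results of these data known. The 10 genes had 16 probe sets among the 34945 that carry 1 gene symbol, and each probe set is given separately. The 9 genes whose signal passed a filter are set below against the 11546 of 18193 genes that did. The RNA came from mouse embryonic fibroblasts, connective tissue cells cultured from embryos, and was hybridized to 4 Affymetrix arrays. The groups were cells labelled Wip1-/- at 4 h after 5 Gy of gamma radiation, unirradiated cells labelled Wip1-/-, Wip1+/+ cells at 4 h after 5 Gy, and unirradiated Wip1+/+ cells, with 1 array each. Ppm1d encodes Wip1, a phosphatase that damps p53 and the stress kinase p38, and p53 target genes were the stated interest of the study. No array has a repeat, so no p-value was computed and the spread between cultures is unknown. How many embryos or lines lie behind each array was not stated.

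Fos and Jun proteins pair through leucine zippers to form AP-1, a DNA-binding dimer. Jun proteins can pair with each other, whereas Fos proteins need a Jun partner. Egr proteins bind GC-rich sites through zinc fingers. Most of these genes are immediate early genes, which growth factors, stress and radiation switch on within minutes through MAP kinases and the factors SRF and CREB, without new protein synthesis. Their transcripts are short-lived, so a sample taken hours later shows what is left of an early pulse or a sustained change.

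The signals were linear intensities as the authors deposited them. A floor of 46.5 was set under them before log2, and a gene entered the comparisons through its brightest probe set if that averaged at least 67.95. Of the 10 genes 9 entered, and Fosb did not. All 13 fibroblast markers examined were above the floor on every array. On each array 10 to 11 of 12 macrophage, 3 to 4 of 6 endothelial and 5 to 6 of 7 epithelial markers were above it. Over all probe sets 36.7% to 41.6% of signals per array lay under the floor. A marker above the floor therefore does not show that its cell type was present. The array of unirradiated cells labelled Wip1-/- stood apart: over 18 spike-in controls the SD of the log2 ratio was 0.44 to 0.47 in pairs with it and 0.07 to 0.10 in pairs without it. Ppm1d, the gene that encodes Wip1, went against the labels: by one probe set both arrays labelled Wip1-/- read higher than both Wip1+/+ arrays, and by the other the genotypes overlapped. Where its probes lie relative to the deletion was not stated, so the cells are called by their label. Its 2 probe sets read 481.9 and 561.1 in irradiated and 503.6 and 219.3 in unirradiated cells labelled Wip1-/-, against 364.1 and 463.1 in irradiated and 374.9 and 316.8 in unirradiated Wip1+/+ cells. Unirradiated cells are labelled 0 h, so radiation and 4 h of further culture cannot be told apart.

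Of the 9 genes, 4 read higher on both irradiated arrays than on both unirradiated arrays by their brightest probe set. These were Fos, Fosl1, Jun and Egr1, where 16.7% of all 11546 genes did so. By brightest probe sets Egr3 was the only 1 of the 9 lower on both irradiated arrays, where 16.3% of all genes were. Fold changes at each genotype follow, with the SD of log2 ratios between probe sets of the same gene as the measure of error. That SD covers differences between probes and not those between arrays or cultures.

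**Figure D1:**
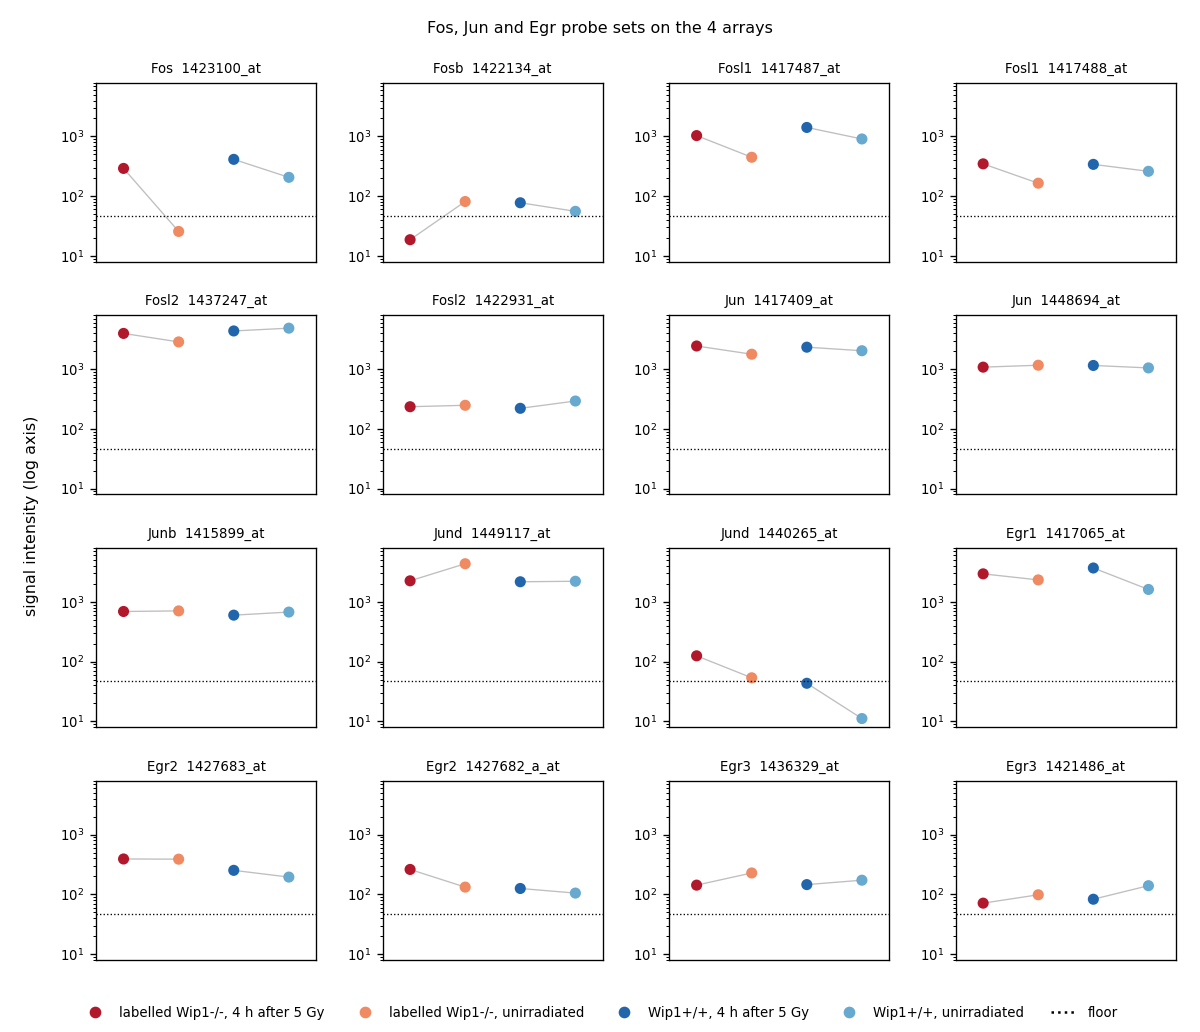
Signal intensity (log axis) of each of the 16 probe sets on the 4 arrays, 1 point per array, with lines joining the arrays of one genotype and the floor of 46.5 dotted. Fos on the unirradiated array labelled Wip1-/-, at 25.6, lies below the floor, while the Junb points lie between 599.8 and 706.7.

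Among the Egr genes, Egr1 had the widest response in Wip1+/+ cells. Egr1, which is induced by growth factors and by radiation in many cell types, read 2951.9 in irradiated against 2338.8 in unirradiated cells labelled Wip1-/-. In Wip1+/+ cells it read 3700.7 after irradiation, against 1617.1 without. The lowest of the 4 signals was that of unirradiated Wip1+/+ cells. The log2 ratio was 1.19 in Wip1+/+ cells (2.29-fold), against an SD of 0.18 between probe sets of genes with a mean of 500 or more. In cells labelled Wip1-/- it was 0.34 (1.26-fold), under the SD of 0.54 there. In Wip1+/+ cells Egr1 ranked 100 of 11546 genes from the highest ratio, and 2 among the 6398 genes with a mean of at least 500.

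Egr2, known for its part in hindbrain and Schwann cell development, read higher on the arrays labelled Wip1-/-. Its brighter probe set read 391.0 in irradiated and 388.1 in unirradiated cells labelled Wip1-/-, against 252.1 in irradiated and 194.4 in unirradiated Wip1+/+ cells. The dimmer one read 260.9 and 132.0 in cells labelled Wip1-/- with and without irradiation, against 125.2 and 104.8 in Wip1+/+ cells. By both probe sets the 2 arrays labelled Wip1-/- were above the 2 Wip1+/+ arrays. The probe sets disagreed on the irradiation ratio in cells labelled Wip1-/-, with log2 ratios of 0.01 and 0.98, and were closer in Wip1+/+ cells, with 0.37 and 0.26.

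Egr3, a related factor induced in muscle spindles and activated T cells, was lower after irradiation by both probe sets and in both genotypes. The brighter probe set read 142.4 in irradiated against 227.8 in unirradiated cells labelled Wip1-/-, and 145.4 in irradiated against 172.3 in unirradiated Wip1+/+ cells. The dimmer one read 71.1 against 98.2 in cells labelled Wip1-/- and 82.7 against 139.4 in Wip1+/+ cells, irradiated against unirradiated. The log2 ratios were -0.68 and -0.47 in cells labelled Wip1-/-, under the SD of 0.70 for genes with a mean under 500. In Wip1+/+ cells they were -0.24 and -0.75, against an SD of 0.49. None reached 2-fold.

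Within the Fos family the 2 members that were higher after irradiation in both genotypes were Fos and Fosl1. Fos, the founding partner of Jun in AP-1, read 291.3 in irradiated cells labelled Wip1-/-, against 25.6 in unirradiated ones. In Wip1+/+ cells it read 413.1 after irradiation, against 206.4 without. The signal under the floor on 1 array makes the Wip1-/- ratio a bound, at least 6.26-fold. The Wip1+/+ ratio was 2.00-fold, where the SD of log2 ratios for such dim genes was 0.49. It sits at the 2-fold line, and quantile normalization gave 0.97. In cells labelled Wip1-/- Fos ranked 5 of 11546 genes from the highest ratio, but the ratio rests on the array that stood apart. With that array left out, no irradiation ratio can be formed in cells labelled Wip1-/-. Irradiated cells labelled Wip1-/- against the mean of both Wip1+/+ arrays gave a log2 ratio of -0.00. That is a different comparison, which mixes genotype and irradiation.

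Fosl1, which encodes Fra-1 and is known as a later and more lasting AP-1 subunit than Fos, had 2 probe sets that ran alike. The brighter read 1033.7 in irradiated against 448.1 in unirradiated cells labelled Wip1-/-, and 1415.6 in irradiated against 907.7 in unirradiated Wip1+/+ cells. The dimmer read 347.3 against 164.7 in cells labelled Wip1-/- and 340.6 against 260.5 in Wip1+/+ cells, irradiated against unirradiated. Both probe sets placed the 2 irradiated arrays above the 2 unirradiated ones. The ratios were 2.31- and 2.11-fold in cells labelled Wip1-/-, and 1.56- and 1.31-fold in Wip1+/+ cells.

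Fosl2, which encodes Fra-2, did not share this pattern. Its brighter probe set read 3974.6 and 2864.6 in irradiated and unirradiated cells labelled Wip1-/-, against 4370.3 and 4866.7 in irradiated and unirradiated Wip1+/+ cells. The dimmer read 234.9 and 248.2 in irradiated and unirradiated cells labelled Wip1-/-, against 220.9 and 292.7 in irradiated and unirradiated Wip1+/+ cells. The 2 arrays labelled Wip1-/- were lower by the brighter probe set only. By the dimmer one the 2 irradiated arrays were below the 2 unirradiated ones. Fosb, a Fos relative known for long-lived splice forms in neurons, stayed dim: it read 18.6 and 81.2 in irradiated and unirradiated cells labelled Wip1-/-, against 77.4 and 55.6 in irradiated and unirradiated Wip1+/+ cells.

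The Jun genes, whose products are in every AP-1 dimer of Fos and Jun proteins, varied less, except for Jund on 1 array. Jun, the member that c-Jun N-terminal kinases phosphorylate, read 2447.1 in irradiated against 1781.2 in unirradiated cells labelled Wip1-/-, and 2336.8 in irradiated against 2037.6 in unirradiated Wip1+/+ cells. Its log2 ratios were 0.46 in cells labelled Wip1-/- and 0.20 in Wip1+/+ cells. The other Jun probe set spanned 1050.1 to 1164.1 over the 4 arrays, with ratios of -0.11 in cells labelled Wip1-/- and 0.14 in Wip1+/+ cells. Junb, often a brake on Jun-driven growth, spanned 599.8 to 706.7. At 1.18-fold this was the narrowest fold range by brightest probe sets of the 9 genes that entered. Its largest log2 ratio in the 4 comparisons was 0.20.

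Jund, the Jun gene known for steady expression in resting cells, read 2255.7 in irradiated against 4360.1 in unirradiated cells labelled Wip1-/-, and 2175.2 in irradiated against 2217.7 in unirradiated Wip1+/+ cells. The log2 ratio was -0.95 in cells labelled Wip1-/- and -0.03 in Wip1+/+ cells. The high signal was that of the array that stood apart, and the other 3 lay between 2175.2 and 2255.7. The second Jund probe set, whose mean was under the filter, ran the other way, and the median over both gave 0.14 in cells labelled Wip1-/-. It read 124.8 and 53.5 in irradiated and unirradiated cells labelled Wip1-/-, against 43.3 and 11.1 in irradiated and unirradiated Wip1+/+ cells.

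Irradiation of Wip1+/+ cells asked which of these genes differ 4 h after damage with Wip1 present. Egr1 and Fos were at least 2-fold higher, 2 of 9, where 1.58% of all genes were. None was at least 2-fold lower, where 1.50% of all genes were. The ratio was above 1 for 5 of the 9, where it was for 52.3% of all genes. The median log2 ratio was 0.20, against 0.01 over all genes.

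In cells labelled Wip1-/- the same comparison asks about damage in cells labelled as lacking Wip1. Fos and Fosl1 were at least 2-fold higher, 2 of 9 against 5.70% of all genes. None was at least 2-fold lower, against 4.63%, but Jund lay just under that line with a log2 ratio of -0.95. It passed the line, at -1.03, with arrays scaled on the median of their brighter probe sets. Its dimmer probe set gave 1.22. Over all genes 658 were higher and 535 lower, but 554 and 700 with arrays scaled on the median of their brighter probe sets. The median log2 ratio was 0.34, against -0.03 over all genes. Of the 9 ratios 6 were above 1, where 47.4% of all genes were. The larger background goes with a wider spread: the SD between probe sets was 0.62 here and 0.37 in Wip1+/+ cells.

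**Figure D2:**
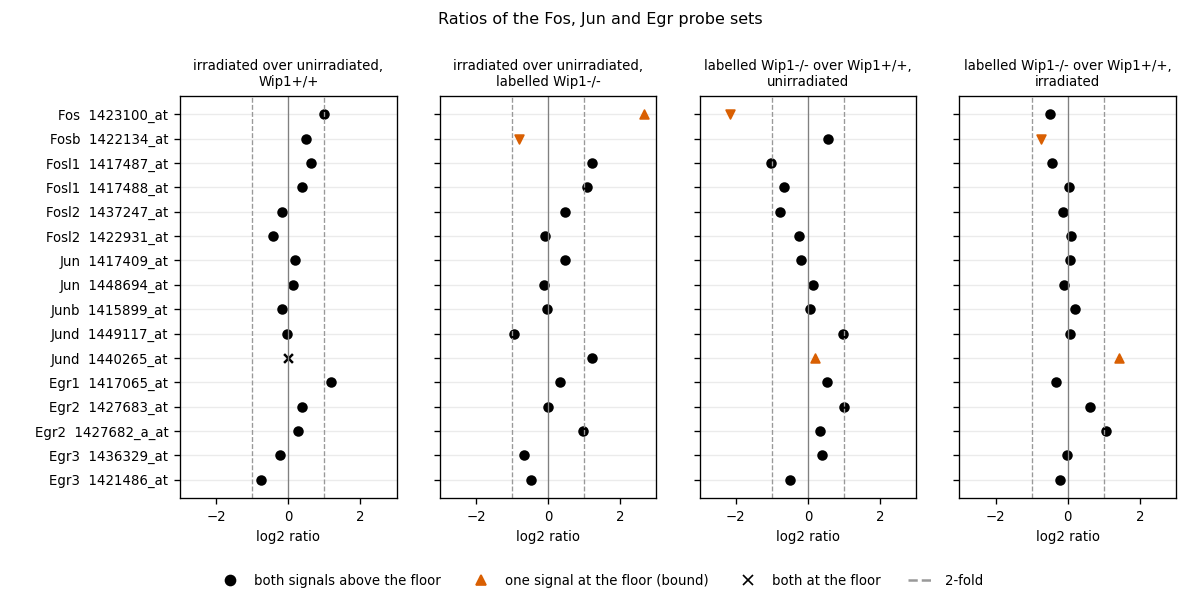
Log2 ratios (x axis) of the 16 probe sets in 4 comparisons, with dashed lines at 2-fold and triangles for bounds pointing up where the ratio is above 0 and down where it is below. Fosl1 lies to the right of 0 in both irradiation panels by both probe sets, and Egr2 to the right in both genotype panels by both.

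The responses were also set against each other, as the log2 ratio in cells labelled Wip1-/- minus that in Wip1+/+ cells. Fos was past 2-fold with 1.65, where 6.44% of all genes were at least 2-fold higher, and it rests on a floored signal. None of the 9 was at least 2-fold lower, where 6.40% of all genes were. Jund and Egr1 followed with -0.92 and -0.86, against an SD of 0.56 for genes of that brightness. The value for Jund turned sign with the probe set: it was 1.22 by the dimmer one, which rests on floored signals, and 0.15 as the median over both. For Egr1 the genotype ratio was 0.53 without irradiation and -0.33 after it. The 2 irradiation comparisons share no array.

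**Figure D3:**
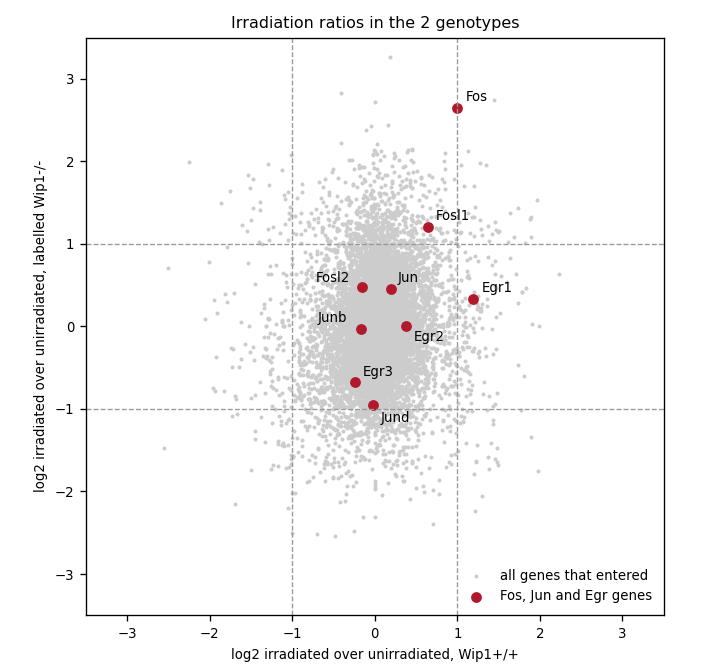
Log2 irradiation ratio in cells labelled Wip1-/- (y axis) against that in Wip1+/+ cells (x axis) for the 11546 genes (grey) and the 9 Fos, Jun and Egr genes that entered (red), with dashed lines at 2-fold. Fos is at or past the line on both axes, Egr1 on the x axis only and Fosl1 on the y axis only.

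Without irradiation, the comparison of genotypes asked whether these factors differ before damage. Fos was at least 4.44-fold lower and Fosl1 2.03-fold lower in cells labelled Wip1-/-, 2 of 9 against 6.82% of all genes. None was at least 2-fold higher, against 5.14%, but Egr2 and Jund lay just under that line at 2.00-fold after rounding and 1.97-fold. Egr2 passed it under 3 other scalings, with log2 ratios of 1.05, 1.01 and 1.07, and Jund under brighter-median scaling, with 1.04. As medians over their probe sets they gave 0.67 and 0.59. These values all rest on the array that stood apart. Fosl1 lost the 2-fold call under 4 alternatives, with log2 ratios of -0.95, -0.96 and -0.98 under other scalings and -0.84 as the median of its probe sets. Macrophage markers moved with the genotype label, and 11 of the 11 that entered were lower on both arrays labelled Wip1-/-. The summed signal of 12 of them was 2268.5 and 2379.9 on the irradiated and unirradiated arrays labelled Wip1-/-, against 9461.2 and 9269.1 on the irradiated and unirradiated Wip1+/+ arrays. The part of macrophages, if present, in the genotype ratios of Fos, Fosl1 and Egr2 was not tested. In RNA of a whole culture fewer cells of a type and less RNA per cell cannot be told apart.

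After irradiation 0 of the 9 genes were at least 2-fold higher or lower between genotypes by their brightest probe sets, where 2.35% and 2.94% of all genes were. Among brightest probe sets Egr2 had the largest log2 ratio, 0.63, and its dimmer one gave 1.06 (2.08-fold). The dimmer Jund probe set, under the filter, was at least 2.68-fold higher in cells labelled Wip1-/-, while the brighter gave a log2 ratio of 0.05. By brightest probe sets Fos followed with -0.50 and Fosl1 with -0.45, while the other Fosl1 probe set gave 0.03. Over both conditions, Junb, Jund and Egr2 read higher on both arrays labelled Wip1-/- than on both Wip1+/+ arrays, 3 of 9 against 20.9% of all genes. Fosl2 alone read lower on both, against 18.7% of all genes. For Junb and Jund the gap was narrow by brightest probe sets. On the lower array labelled Wip1-/- they read 691.0 and 2255.7. The higher Wip1+/+ array read 675.6 for Junb and 2217.7 for Jund.

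Start site windows of 300 bases, from 250 before to 50 after an annotated start, were matched by symbol for 7 of the 10 genes, 11 windows in all, in RefSeq on GRCm38.p6. Fos, Egr2 and Jun are shown because they stand for the strongest irradiation ratio, the clearest genotype split and a gene that moved little. Capitals mark matches on either strand to TGACG (the core of the cyclic AMP response element), to the CArG box that SRF binds, and to TGACATCA, a variant AP-1 site. The Fos window is chr12:85473640-85473939 on the plus strand, that of Egr2 chr10:67537619-67537918 on the plus strand and that of Jun chr4:95052173-95052472 on the minus strand.
Fos: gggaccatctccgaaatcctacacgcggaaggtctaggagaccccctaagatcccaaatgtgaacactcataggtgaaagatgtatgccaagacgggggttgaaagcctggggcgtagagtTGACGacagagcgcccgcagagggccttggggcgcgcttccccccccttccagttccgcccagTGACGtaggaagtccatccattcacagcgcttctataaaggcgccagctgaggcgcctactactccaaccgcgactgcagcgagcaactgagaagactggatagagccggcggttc
Egr2: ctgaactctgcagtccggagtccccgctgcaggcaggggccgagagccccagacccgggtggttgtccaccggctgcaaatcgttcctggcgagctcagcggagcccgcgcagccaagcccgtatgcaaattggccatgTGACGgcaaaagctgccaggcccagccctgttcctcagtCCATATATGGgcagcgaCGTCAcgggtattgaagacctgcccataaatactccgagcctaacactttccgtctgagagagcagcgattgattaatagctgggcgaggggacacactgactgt
Jun: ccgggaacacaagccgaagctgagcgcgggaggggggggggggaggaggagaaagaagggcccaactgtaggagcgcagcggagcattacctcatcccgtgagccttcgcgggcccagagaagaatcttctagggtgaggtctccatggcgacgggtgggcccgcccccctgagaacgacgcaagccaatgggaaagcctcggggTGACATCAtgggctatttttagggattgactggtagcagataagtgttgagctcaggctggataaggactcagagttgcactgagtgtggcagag

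The Fos window holds TGACG at 2 places, starting 129 and 66 bases before the start site, and no CArG box. Bases further upstream than the window were not searched. The Egr2 window shown holds a CArG box starting 72 bases before the start, between a pair of TGACG matches, and 2 further Egr2 windows overlap it and hold the same matches. Another Egr2 start, upstream of these, has a CArG box and no TGACG. The Jun window holds TGACATCA starting 45 bases before the start. Fosb and Junb have 1 TGACG each, Fosb and Fosl2 have 1 Egr site (GCGNGGGCG) each, and the Jund window has no match. Among all 32851 windows, TGACG was in 20.8%, the CArG box in 1.63%, TGACATCA in 3.62% and GCGNGGGCG in 5.55%. The full element TGACGTCA, which contains TGACG, and the AP-1 site TGACTCA were in none of the 11 windows, against 1.79% and 5.20% of all. Of the 11 windows 5 are Egr2 starts and none is of Fosl1, Egr1 or Egr3. The search for windows of the 10 genes was limited by chromosome, while the 32851 windows were not. A gene without a window here may therefore still have an annotated start, and its motifs were not searched. These are matches of letters in a window and not measured binding.

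**Figure D4:**
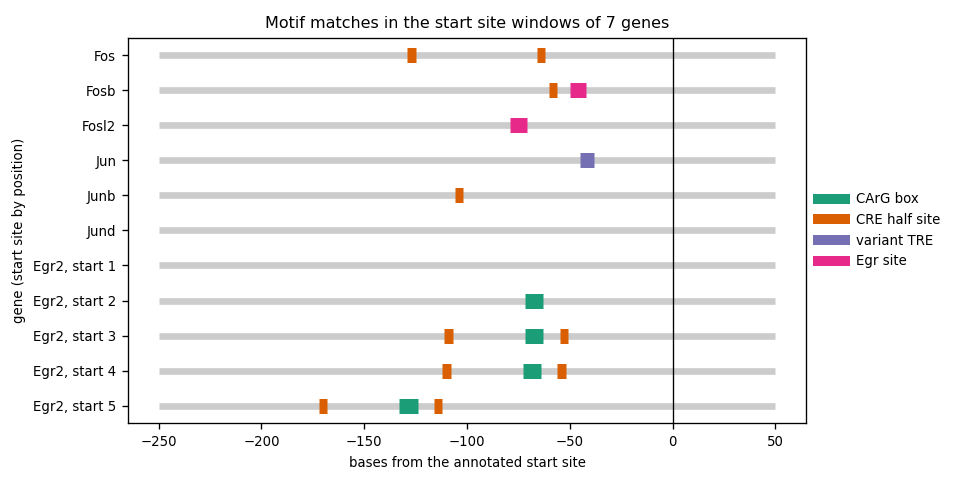
Positions of motif matches (coloured blocks) in the 11 windows of 7 genes, with the x axis in bases from the annotated start site and 1 row per start. The CArG box is in 4 of the 5 Egr2 windows, and the variant AP-1 site in the Jun window.

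Other genes of the pathway were read from 5 lists. Among 22 other immediate early genes, 5 were higher and 6 lower on both irradiated arrays than on both unirradiated ones, against 16.7% and 16.3% of all genes. Those higher were Klf4, Klf6, Myc, Btg2 and Ptgs2. By brightest probe sets, those lower included the 3 Nr4a orphan nuclear receptors and Egr4, the remaining Egr gene. Egr4 read 23.2 in irradiated against 118.4 in unirradiated cells labelled Wip1-/- (at least 2.55-fold lower), and 52.2 in irradiated against 100.6 in unirradiated Wip1+/+ cells. Nr4a1 read 825.2 in irradiated against 1902.7 in unirradiated cells labelled Wip1-/- (2.31-fold lower), and 1016.8 in irradiated against 1304.0 in unirradiated Wip1+/+ cells. Nr4a2 read 151.6 against 406.6 in cells labelled Wip1-/- and 153.7 against 173.3 in Wip1+/+ cells, irradiated against unirradiated, or 2.68-fold lower in the first. Its 3 other probe sets above the floor gave log2 ratios of -0.70, 0.54 and 1.39 there. In Wip1+/+ cells these gave 0.13, 0.17 and 0.16. Nr4a3 was at least 2.48-fold lower in irradiated cells labelled Wip1-/-, at 18.2 against 115.1. Gem, a small GTPase, was lower by genotype label, at 35.3 and 8.5 in irradiated and unirradiated cells labelled Wip1-/-, against 130.0 and 121.0 in irradiated and unirradiated Wip1+/+ cells. Btg2, an antiproliferative p53 target, had log2 ratios of 0.93 in cells labelled Wip1-/- and 0.91 in Wip1+/+ cells. The median of this list was -0.15 in cells labelled Wip1-/- and 0.03 in Wip1+/+ cells, with 4 genes of 22 at least 2-fold lower and 0 higher in the first, where 4.63% and 5.70% of all genes were. In the second 0 were past 2-fold, where 1.58% of all genes were higher and 1.50% lower.

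Of the bZIP partners of AP-1 proteins, 11 genes entered. Batf, a partner of Jun proteins in lymphocytes and dendritic cells, was at least 3.41-fold higher after irradiation in Wip1+/+ cells, at 158.7 against 38.2. In cells labelled Wip1-/- it was at least 2.02-fold lower, at 17.1 against 93.8. Batf3, a relative of Batf, was at least 2.24-fold lower in irradiated cells labelled Wip1-/-, at 13.7 against 104.1. Maf, a large bZIP factor, was 2.16-fold lower in unirradiated cells labelled Wip1-/-, at 182.6 against 395.3 in Wip1+/+ cells, but its other probe sets gave both signs. Atf3, a stress-induced partner of Jun, was lower on both irradiated arrays, with log2 ratios of -0.74 in cells labelled Wip1-/- and -0.35 in Wip1+/+ cells. After irradiation 0 of 11 were at least 2-fold higher and 2 lower in cells labelled Wip1-/-, where 5.70% and 4.63% of all genes were. In Wip1+/+ cells 1 was higher and 0 lower, where 1.58% and 1.50% of all genes were. The list median was -0.30 in cells labelled Wip1-/- and 0.14 in Wip1+/+ cells.

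Of the kinases and factors upstream, 15 entered. After irradiation 0 were at least 2-fold higher and 1 lower in cells labelled Wip1-/-, where 5.70% and 4.63% of all genes were, and 0 were past 2-fold in Wip1+/+ cells, where 1.58% were higher and 1.50% lower. Creb1, which encodes the factor CREB, had a log2 ratio of 0.57 in cells labelled Wip1-/- and 0.64 in Wip1+/+ cells. Its 4 other probe sets above the floor ran from 0.19 to 1.54 in cells labelled Wip1-/- and from -0.61 to 0.50 in Wip1+/+ cells. Map2k4, a kinase that activates JNK, read 1413.6 in irradiated against 2560.4 in unirradiated cells labelled Wip1-/-, and 1975.0 in irradiated against 1501.8 in unirradiated Wip1+/+ cells. Its response difference was -1.25, and 0.24 by its other probe set. Mapk7, the ERK5 kinase, had a genotype log2 ratio of -0.69 without irradiation, at 282.5 in cells labelled Wip1-/- and 456.6 in Wip1+/+ cells. Map2k2, a kinase that activates ERK, was 2.00-fold lower after irradiation in cells labelled Wip1-/-, at 1443.4 against 2892.7, but its second probe set gave a log2 ratio of -0.05. Srf itself, from the immediate early list, read 947.8 and 1698.0 in irradiated and unirradiated cells labelled Wip1-/-, against 1018.4 and 970.4 in irradiated and unirradiated Wip1+/+ cells.

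Among 10 negative regulators, Sik1, a kinase that holds back CREB signalling, read 15.7 in irradiated against 93.6 in unirradiated cells labelled Wip1-/-, and 124.4 in irradiated against 48.3 in unirradiated Wip1+/+ cells. It was thus 2.58-fold higher in Wip1+/+ cells and at least 2.01-fold lower in cells labelled Wip1-/-. Fbxw7, part of a ubiquitin ligase that degrades Jun, was 2.02-fold higher in irradiated cells labelled Wip1-/- by one probe set, and its other gave a log2 ratio of -0.02. Nab2, a corepressor of Egr proteins and itself an Egr target, had a lower signal on both irradiated arrays, with log2 ratios of -0.49 in cells labelled Wip1-/- and -0.53 in Wip1+/+ cells. In Wip1+/+ cells that is opposite in sign to Egr1, at 1.19. Dusp5, a phosphatase of ERK, had a genotype log2 ratio of 0.91 without irradiation, at 998.1 in cells labelled Wip1-/- and 532.4 in Wip1+/+ cells. Of the 10, 1 was higher and 1 lower by at least 2-fold in cells labelled Wip1-/-, where 5.70% and 4.63% of all genes were, and 1 higher and 0 lower in Wip1+/+ cells, where 1.58% and 1.50% were. The list median was -0.42 in cells labelled Wip1-/- and 0.19 in Wip1+/+ cells.

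Of 12 AP-1 target genes that entered, 1 (Mmp10, a matrix metalloproteinase) was higher and 3 (Plaur, Hmox1 and Hbegf) lower on both irradiated arrays, where 16.7% of all genes were higher and 16.3% lower. Mmp10 had log2 ratios of 0.75 in cells labelled Wip1-/- and 0.71 in Wip1+/+ cells. Mmp3, another metalloproteinase, was 2.07-fold lower in Wip1+/+ cells, at 68.9 against 142.4. Of the 12, 0 were past 2-fold in cells labelled Wip1-/-, where 5.70% of all genes were higher and 4.63% lower. In Wip1+/+ cells 0 were higher and 1 lower, where 1.58% and 1.50% were. The list medians were 0.05 in cells labelled Wip1-/- and -0.03 in Wip1+/+ cells. Il6, a cytokine with an AP-1 site, read 347.8 and 398.0 in irradiated and unirradiated cells labelled Wip1-/-, against 196.7 and 170.1 in irradiated and unirradiated Wip1+/+ cells, and was 2.34-fold higher in cells labelled Wip1-/- without irradiation. Mmp13, a collagenase, read 255.0 and 253.0 in irradiated and unirradiated cells labelled Wip1-/-, against 158.6 and 145.8 in irradiated and unirradiated Wip1+/+ cells. Hmox1, heme oxygenase, had log2 ratios of -0.58 in cells labelled Wip1-/- and -0.14 in Wip1+/+ cells.

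**Figure D5:**
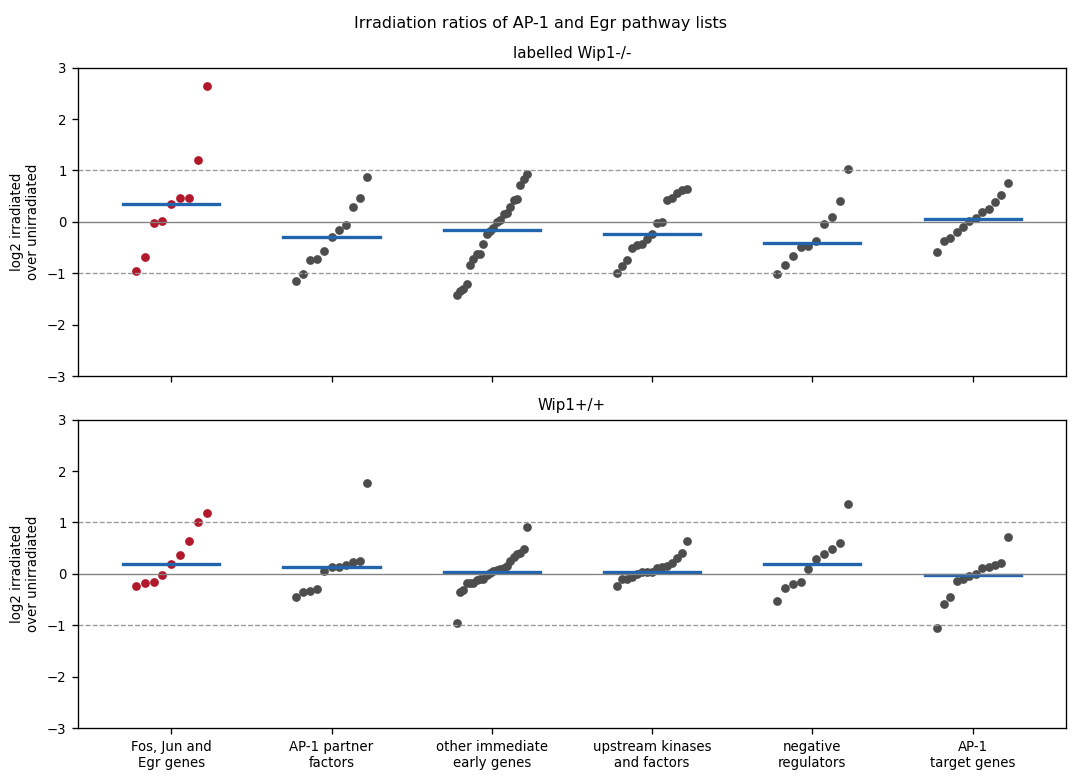
Log2 irradiation ratios (y axis) of the genes of 6 lists, in cells labelled Wip1-/- (top) and Wip1+/+ cells (bottom), 1 point per gene ordered by value, with the list median in blue and 2-fold dashed. The medians of the Fos, Jun and Egr genes are 0.34 and 0.20, and those of AP-1 targets 0.05 and -0.03.

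Genes of most similar pattern were sought for the 4 members above the floor on all arrays that spanned 2-fold or more, among 10770 such genes, by the root mean square difference of centred log2 signals over the 4 arrays. Nxpe3, Metap1d and Myl4 were nearest to Egr1, with differences of 0.040 to 0.067. Dmxl1, Zfp944 and Zfp296 were nearest to Fosl1, with 0.048 to 0.069. Tdrp, Pstpip1 and Wnt9a were nearest to Egr2, with 0.050 to 0.055. Ppp4r1, Arhgap26 and Mprip were nearest to Jund, with 0.014 to 0.020, all high on the array that stood apart: Mprip read 9805.4 and 18683.8 in irradiated and unirradiated cells labelled Wip1-/-, against 9218.5 and 9744.2 in irradiated and unirradiated Wip1+/+ cells. With 4 arrays many genes can come close to any pattern.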

How the data were processed

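RNA from 4 cultures of mouse embryonic fibroblasts was hybridized to Affymetrix arrays, 1 per group. The authors deposited 1 linear intensity per probe set. Per the submitters' processing notes the tool was GCOS, without a version. Background steps and detection calls were not stated. Each column had a mean of 500 after trimming 2% at each end, so the arrays were used as deposited.

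Control probe sets were left out of the 45101, which left 45037, and the platform annotation gave 34945 of these a single symbol. RefSeq gene identifiers matched 34741 of them and changed 0 symbols. The floor was the 40th percentile of all signals, and 36.7% to 41.6% of values per array lay under it. A gene entered by its brightest probe set if that reached the median of all probe set means. Comparisons were log2 ratios between arrays, counted at 2-fold over all genes that entered. With 1 array per group no test was run. Array number and signal over background limit the precision. The members and lists were chosen with earlier results of these data known. The counts of genes whose arrays lie apart were added after the values were seen.

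All member probe sets are named, with every pathway gene at least 2-fold apart in a comparison. For a list with none in a comparison, the 2 largest ratios were named. Srf, Atf3, Nab2 and the genes named for arrays lying apart were chosen after their values were seen. Another scaling (quantile, cyclic loess, median of the brighter probe sets), floor, filter or probe set choice was tried in turn, as was leaving out the unirradiated array labelled Wip1-/-. R 4.3.3 with limma 3.58.1, Python 3.11.15, numpy 2.4.6 and pandas 2.3.3 were used. The ratio calculation was tested on simulated data.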

Additional observations from a re-analysis of the deposited data

Results flagged for a closer look

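The direction of the irradiation response differed between the genotypes for 3 of the 16 member probe sets. It also differed for 4 pathway genes past 2-fold in at least 1 genotype. No share of all genes is set beside these counts. With 1 array per group these differences were not tested. All are log2 ratios in cells labelled Wip1-/- minus those in Wip1+/+ cells. For Fosb it was -1.28, from -0.80 (a bound) in cells labelled Wip1-/- and 0.48 in Wip1+/+ cells, at signals near the floor. For the brighter probe set of Fosl2 it was 0.63, from 0.47 and -0.16. For the dimmer probe set of Jun it was -0.24, from -0.11 and 0.14. For Batf it was -2.78 and for Sik1 -2.37, each resting on signals near or under the floor. For Map2k2 it was -1.15, with -0.21 by its other probe set. For Mmp3 it was 1.13. All these rest on the unirradiated array labelled Wip1-/-, whose spike-in controls stood apart.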

How the results depend on the processing

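No paired analysis was possible because each group has 1 array and the labels give no replicate numbers. Under 9 alternatives of scaling, floor, filter and probe set choice, 389 of 400 single gene values stayed on the same side of 2-fold, 6 lost the call and 5 gained it, and 8 turned sign. The Egr1 log2 ratio in Wip1+/+ cells ranged from 1.17 to 1.19. The count of members at 2-fold in that comparison was 1 in place of 2 under quantile normalization and under brighter-median scaling, as Fos had 0.97 and 0.98. For unirradiated genotypes it was 1 in place of 2 with the median over probe sets. Under brighter-median scaling the count was 3 in place of 2 for irradiation in cells labelled Wip1-/- and for unirradiated genotypes. With no filter, Fosb entered the response difference, whose count was 2 in place of 1 and whose median was -0.11 in place of 0.14. With the filter at the 67th percentile, 0 members in place of 1 were lower on both irradiated arrays, as Egr3 did not enter. Leaving out the unirradiated array labelled Wip1-/- and setting irradiated cells labelled Wip1-/- against the mean of both Wip1+/+ arrays changes the comparison itself. The median was then 0.04 in place of 0.34 for irradiation in cells labelled Wip1-/-. By brightest probe sets 0 members were at 2-fold, for that comparison and for unirradiated genotypes, with Fos at -0.00 in place of 2.65 and Fosl1 at -0.13 in place of 1.21 for irradiation. The dimmer probe sets of Egr2 and Jund were past it, at 2.28- and at least 2.68-fold. Over all genes, the filter at the 67th percentile left 20 higher and 8 lower in place of 182 and 173 in Wip1+/+ cells, and 337 and 100 in place of 658 and 535 in cells labelled Wip1-/-. It left 181 and 411 in place of 593 and 788 for unirradiated genotypes, 62 and 96 in place of 271 and 340 for irradiated genotypes, and 337 and 200 in place of 744 and 739 for the response difference. No filter gave 281 lower in Wip1+/+ cells, 953 lower in cells labelled Wip1-/-, 1016 higher for unirradiated genotypes and 1250 lower for the response difference, and the median over probe sets gave 425 higher in cells labelled Wip1-/-. Brighter-median scaling moved the split in cells labelled Wip1-/- to 554 higher and 700 lower, and that of unirradiated genotypes to 738 and 692 in place of 593 and 788. The cause of these changes was not tested. Dim signals, such as those of Fosb and Batf, limit what can be read at this signal over background.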
